A study of Mus musculus with 12 samples.

Results

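Transcripts of 9 chemokine ligand genes were followed in C2C12 cells: Ccl2, Ccl5, Ccl7, Cxcl1, Cxcl5, Cxcl10, Cxcl12, Cxcl16 and Cx3cl1. The genes were taken by name, 9 of 53801 gene identifiers in the deposited counts, and each symbol matched 1 Ensembl identifier. All 9 had enough reads to be tested, so 0 were too low. C2C12 is a line of mouse myoblasts, the precursors of muscle fibres. Of the 4 groups, control DMSO received the solvent for 6 h, and control thapsigargin received thapsigargin for 6 h. The other groups, knockdown DMSO and knockdown thapsigargin, held cells with Cebpg knocked down (labelled Sh2) under the same treatments. Each group had 3 libraries, 12 in all. Thapsigargin blocks the SERCA calcium pump and so causes endoplasmic reticulum stress, and Cebpg encodes C/EBP gamma, a partner of the stress factor ATF4. All groups are of 1 cell line, the knockdown is named by 1 label only, and the sources used here do not say what the control cells were given. An off-target effect or another lasting difference between the cell populations cannot be told apart from the knockdown. The growth protocol names HeLa, whereas the source and cell line fields name C2C12.

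Chemokines are small proteins that cells release to attract other cells, and they act through receptors with a chain that crosses the membrane repeatedly. Most are secreted and held on the sugar chains of cell-surface proteoglycans, whereas Cx3cl1 and Cxcl16 are made as membrane proteins and released by sheddases. Inflammatory ligands such as Ccl2 are induced through NF-kappaB, those such as Cxcl10 also through interferon-regulated factors, and Cxcl12 is made by stromal cells without an inflammatory signal. In muscle, myoblasts are a source of chemokines that draw monocytes and neutrophils to an injury.

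The 9 genes lie on 4 chromosomes of GRCm38, with annotation from GENCODE. On chromosome 5 are Cxcl5 (ENSMUSG00000029371, 90759360 to 90761624, plus strand), Cxcl1 (ENSMUSG00000029380, 90891241 to 90893115, plus strand) and Cxcl10 (ENSMUSG00000034855, 92346638 to 92348889, minus strand). Chromosome 11 holds Cxcl16 (ENSMUSG00000018920, 70453983 to 70459984, minus strand), Ccl2 (ENSMUSG00000035385, 82035571 to 82037453, plus strand), Ccl7 (ENSMUSG00000035373, 82045712 to 82047525, plus strand) and Ccl5 (ENSMUSG00000035042, 83525778 to 83530518, minus strand). Cxcl12 is on chromosome 6 (ENSMUSG00000061353, 117168535 to 117181367, plus strand) and Cx3cl1 on chromosome 8 (ENSMUSG00000031778, 94772009 to 94782427, plus strand). Ccl2 and Ccl7 are 8.26 kb apart, and Cxcl1 and Cxcl5 130 kb apart. Exons of Cxcl10 share 133 bases with Art3, and exons of Cxcl16 share 552 bases with Zmynd15, both on the other strand. The sources used here give neither the strand of the libraries nor the counter. Whether reads in the shared bases were counted for either gene, or set aside as ambiguous, is therefore not known.

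Promoter sequences were matched for 4 of the 9 genes (Cxcl1, Cxcl10, Cxcl12 and Cx3cl1), from RefSeq on GRCm38.p6. Of these, 3 are shown as the 250 bases before the RefSeq start, 5′ to 3′ on the gene's strand: Cxcl10 and Cxcl12, whose transcripts rose most and fell most of the 9 under thapsigargin in control cells, and Cxcl1. Capitals mark matches, on either strand, to the NF-kappaB consensus or to the core of the interferon response element, GAAANNGAA. The Cxcl10 window is chr5:92348890-92349139 (minus strand), the Cxcl1 window chr5:90890995-90891244 (plus strand) and the Cxcl12 window chr6:117168285-117168534 (plus strand).
Cxcl10: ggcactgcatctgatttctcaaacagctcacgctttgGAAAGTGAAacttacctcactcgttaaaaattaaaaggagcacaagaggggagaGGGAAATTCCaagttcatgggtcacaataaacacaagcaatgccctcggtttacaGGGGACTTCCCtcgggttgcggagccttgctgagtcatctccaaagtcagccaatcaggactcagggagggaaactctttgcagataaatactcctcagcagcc
Cxcl1: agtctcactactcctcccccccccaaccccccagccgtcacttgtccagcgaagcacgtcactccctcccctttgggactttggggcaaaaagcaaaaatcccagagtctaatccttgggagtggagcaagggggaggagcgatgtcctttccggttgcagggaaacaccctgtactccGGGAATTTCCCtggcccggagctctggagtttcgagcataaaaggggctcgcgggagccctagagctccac
Cxcl12: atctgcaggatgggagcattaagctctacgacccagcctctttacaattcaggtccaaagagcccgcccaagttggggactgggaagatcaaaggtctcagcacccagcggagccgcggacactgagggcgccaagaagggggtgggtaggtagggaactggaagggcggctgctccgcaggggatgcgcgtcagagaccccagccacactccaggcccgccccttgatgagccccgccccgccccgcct
In the Cxcl10 window the interferon element core lay 213 to 205 bases before the start. Matches to the NF-kappaB consensus lay 159 to 150 bases before it, and again in an overlapping run 104 to 94 bases before it. The Cxcl1 window held the NF-kappaB consensus on both strands in 1 overlapping run 71 to 61 bases before the start. No match was found in the Cxcl12 and Cx3cl1 windows. All 4 windows were also searched on both strands for the C/EBP-ATF element TGATGNAA and the C/EBP half-palindrome TTNNGCAA, and neither set of letters was found. Among 32851 promoter windows of the same length, 7.25% held the NF-kappaB consensus, 7.13% GAAANNGAA, 3.45% TGATGNAA and 9.56% TTNNGCAA. These are letter matches only.

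Libraries held 29.42 to 47.72 M gene reads. Levels are given as counts per M gene reads after TMM scaling (CPM), as mean ± SD over n = 3 libraries, and changes as log2 with an approximate SE. Adjusted p-values are from edgeR's quasi-likelihood test with Benjamini-Hochberg adjustment over 15828 genes, and a gene is said to rise or fall where this was under 0.05. The labels do not call the replicates separate cultures, and the p-values then cover no more than the spread of these libraries, which may be technical. Cebpg itself was at 51.7, 51.5 and 60.6 CPM in control DMSO and 4.63, 3.74 and 5.18 CPM in knockdown DMSO libraries. It was at 211, 219 and 216 CPM in control and 6.11, 5.57 and 5.28 CPM in knockdown libraries under thapsigargin. All 6 myoblast markers were tested, and their summed level was highest in control DMSO libraries, at 2030 to 2240 CPM. It was 1640 to 1710 CPM in control thapsigargin, 1470 to 1590 CPM in knockdown DMSO and 1480 to 1540 CPM in knockdown thapsigargin libraries. Of 8 leukocyte markers only Cd68 and Csf1r had enough reads to be tested, and the summed level was 5.03 to 6.03 CPM in control DMSO and 3.53 to 3.99 CPM in control thapsigargin libraries. In knockdown libraries it was 5.95 to 8.87 CPM in DMSO and 4.58 to 5.99 CPM under thapsigargin. Cd68 rose with the knockdown in both treatments (0.55, SE 0.14, and 0.7, SE 0.16), whereas the knockdown change of Csf1r passed in neither. With thapsigargin 1 of these 2 markers fell and 1 did not pass, in each cell population. The pan-leukocyte gene Ptprc, too low to test, had 0 reads in control DMSO and 25 reads in control thapsigargin libraries. The summed level of 5 endothelial markers differed between the treatments. In control cells it was 4.19 to 5.12 CPM in DMSO and 27.5 to 32.3 CPM under thapsigargin, and in knockdown cells 5.9 to 6.95 CPM and 18.4 to 21.1 CPM. That of 5 epithelial markers was at most 0.35 CPM in control DMSO, 0.925 CPM in knockdown DMSO, 3.12 CPM in control thapsigargin and 8.07 CPM in knockdown thapsigargin libraries. The part of these marker levels in the chemokine results was not tested. In cells measured in bulk, fewer cells of a type and less RNA per cell cannot be told apart.

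Per length of exon, Ccl7 and Ccl2 were the most abundant of the 9 in every group. In control DMSO cells the order of mean level was Ccl7 (409 CPM per kb of exon), Ccl2 (258), Cxcl1 (111), Cxcl5 (54.8), Cxcl12 (10.9), Cx3cl1 (10.3), Ccl5 (2.63), Cxcl16 (0.548) and Cxcl10 (0.54). The libraries of Cxcl12 and Cx3cl1 overlapped, as did those of Cxcl16 and Cxcl10. The first 4 places were the same in all 4 groups. This order depends on the exon length, which was 8176 bases for Cxcl12 and 1863 for Cxcl5. Without length scaling, Cxcl12 was above Cxcl5 in knockdown thapsigargin cells (68.7 against 39.8 CPM). Below them the order differed: under thapsigargin in control cells Ccl5 (5.36 CPM per kb), Cx3cl1 (5.26) and Cxcl10 (4.43) stood above Cxcl12 (1.7), with overlap between Ccl5 and Cx3cl1 only. In knockdown cells under thapsigargin Cxcl12 (8.41 CPM per kb) kept the fifth place, above Ccl5 (5.38), Cx3cl1 (4.88) and Cxcl10 (4.09). There the libraries of Ccl5 and Cx3cl1, and of Cx3cl1 and Cxcl10, overlapped. In knockdown DMSO cells no neighbours in the order overlapped.

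**Figure D1:**
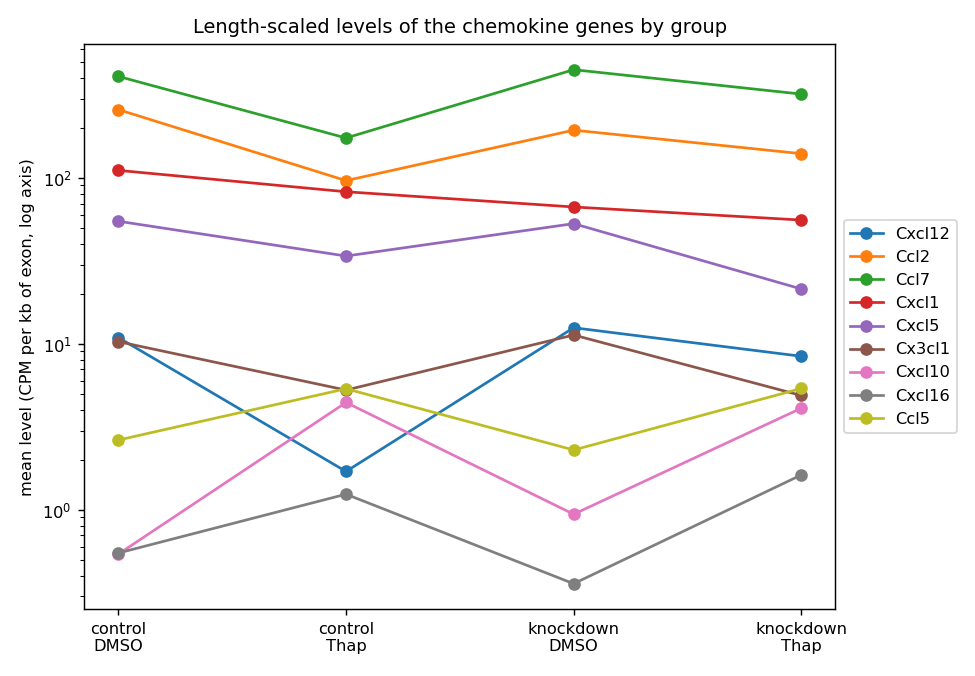
Mean level per kb of exon (y axis, CPM per kb, log scale) of each of the 9 chemokine genes (one coloured line each) in the 4 groups (x axis); lines join the groups for reading only. Ccl7, Ccl2, Cxcl1 and Cxcl5 kept the first 4 places, while Cxcl12 went from 10.9 to 1.7 CPM per kb with thapsigargin in control cells and from 12.5 to 8.41 CPM per kb in knockdown cells.

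Whether the stress response of these ligands differs when Cebpg is low was asked by comparing thapsigargin with DMSO in each cell population, and then by testing the difference of these changes. Under thapsigargin all 9 genes changed in both cell populations, in the same direction in each: Cxcl10, Cxcl16 and Ccl5 rose, and Cxcl12, Ccl2, Ccl7, Cx3cl1, Cxcl5 and Cxcl1 fell. The libraries of the treatments did not overlap for any of the 9, in either population. The share of all genes with libraries apart was not computed, here or for the knockdown comparisons below. Nothing particular to the ligands is therefore read from this separation. In control cells 74.7% of all genes tested changed (37.7% rose and 37.0% fell), and the median change was -0.7 for the 9 genes and 0.0 for all genes. In knockdown cells 69.8% of all genes changed (35.4% rose and 34.4% fell), with medians of -0.47 and 0.0. Changes were therefore common throughout the transcriptome. The 2 comparisons share no libraries. The difference of the changes passed for 5 of the 9 genes, against 35.4% of all genes: it was positive for Cxcl12, Cxcl16, Ccl2 and Ccl7 (17.7% of all genes) and negative for Cxcl5 (17.7%). The median difference was 0.19 for the 9 genes and 0.01 for all genes.

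**Figure D2:**
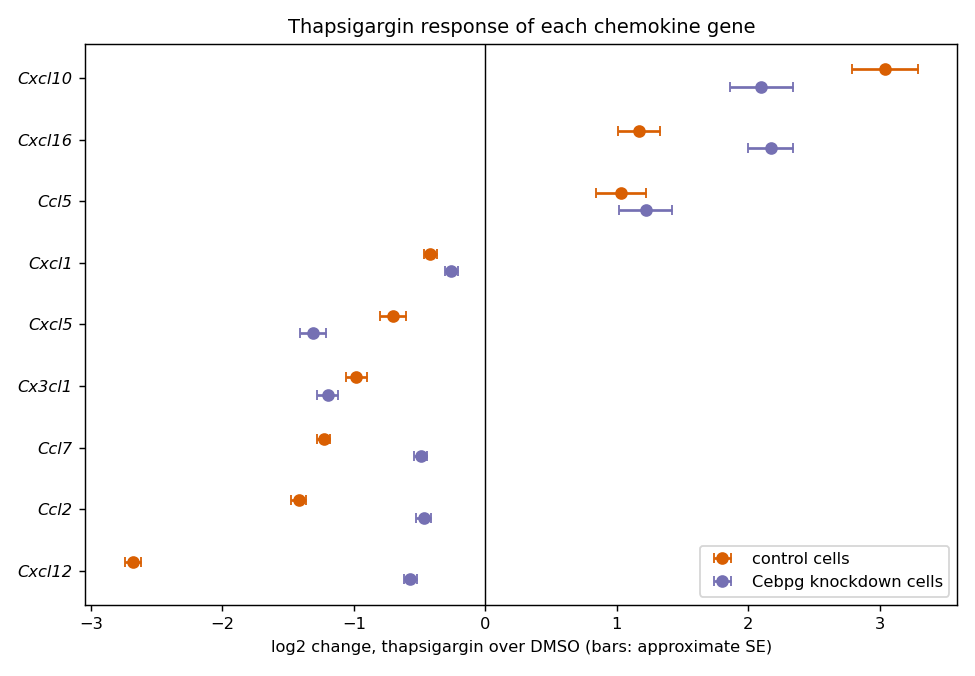
Change with thapsigargin (x axis, log2 of thapsigargin over DMSO) of the 9 chemokine genes (y axis) in control cells (orange) and Cebpg knockdown cells (purple); bars are approximate SE. Cxcl12 lies at -2.68 in control and -0.57 in knockdown cells, and Ccl2 and Ccl7 are also closer to 0 in knockdown cells.

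Cxcl12, the ligand of Cxcr4 and Ackr3 that guides progenitor cells, had the largest difference of the 9 between the cell populations. Its level was 85.9, 85.5 and 95.9 CPM in control DMSO and 13.5, 13.7 and 14.4 CPM in control thapsigargin libraries. In knockdown cells it was 102, 102 and 103 CPM in DMSO and 65.8, 71.2 and 69.2 CPM under thapsigargin. The control thapsigargin libraries stood far below all others, and no group overlapped another. Thapsigargin left 15.6% of the DMSO mean in control cells (log2 change -2.68, SE 0.06, adjusted p = 2.75e-28) and 67.1% in knockdown cells (-0.57, SE 0.05, adjusted p = 6.7e-12). Their difference was 2.11 (SE 0.08, adjusted p = 3.82e-20). Knockdown cells held more Cxcl12 than control cells in DMSO (0.20, SE 0.05, adjusted p = 0.00105), and 4.95-fold as much under thapsigargin (2.31, SE 0.06, adjusted p = 1.38e-25).

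Ccl2, which attracts monocytes through Ccr2, was lower in knockdown cells at rest and higher in them under stress. Levels were 277, 286 and 317 CPM in control DMSO and 217, 214 and 233 CPM in knockdown DMSO libraries. Under thapsigargin they were 106, 114 and 109 CPM in control and 150, 154 and 175 CPM in knockdown libraries. The groups did not overlap, and the order of the cell populations turned between the treatments. The knockdown change was -0.41 in DMSO (SE 0.06, adjusted p = 4.34e-07) and 0.54 under thapsigargin (SE 0.06, adjusted p = 2.53e-09). Thapsigargin left 37.4% of the DMSO mean in control cells (-1.42, SE 0.06, adjusted p = 4.04e-19) and 72.2% in knockdown cells (-0.47, SE 0.06, adjusted p = 1.87e-08). Their difference was 0.95 (SE 0.08, adjusted p = 1.07e-10).

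Ccl7, a further monocyte attractant encoded beside Ccl2, also fell less in knockdown cells. It was at 325, 322 and 335 CPM in control DMSO and 136, 143 and 139 CPM in control thapsigargin libraries. Knockdown libraries held 360, 342 and 378 CPM in DMSO and 239, 245 and 284 CPM under thapsigargin. All 4 groups were separate, with the control thapsigargin libraries lowest. Thapsigargin left 42.5% of the DMSO mean in control cells (-1.23, SE 0.05, adjusted p = 1.11e-19) and 71.1% in knockdown cells (-0.49, SE 0.05, adjusted p = 5.89e-10), a difference of 0.74 (SE 0.07, adjusted p = 1.08e-09). Under thapsigargin knockdown cells held more Ccl7 (0.88, SE 0.05, adjusted p = 2.1e-15). In DMSO the knockdown change was 0.14 (SE 0.05, adjusted p = 0.0256), in the direction opposite to that of Ccl2. It did not pass without control DMSO replicate 1 (adjusted p = 0.0772) or 2 (0.054), or knockdown DMSO replicate 1 (0.0614) or 3 (0.126), and over 20 alternatives the adjusted p ran from 0.00685 to 0.126.

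**Figure D3:**
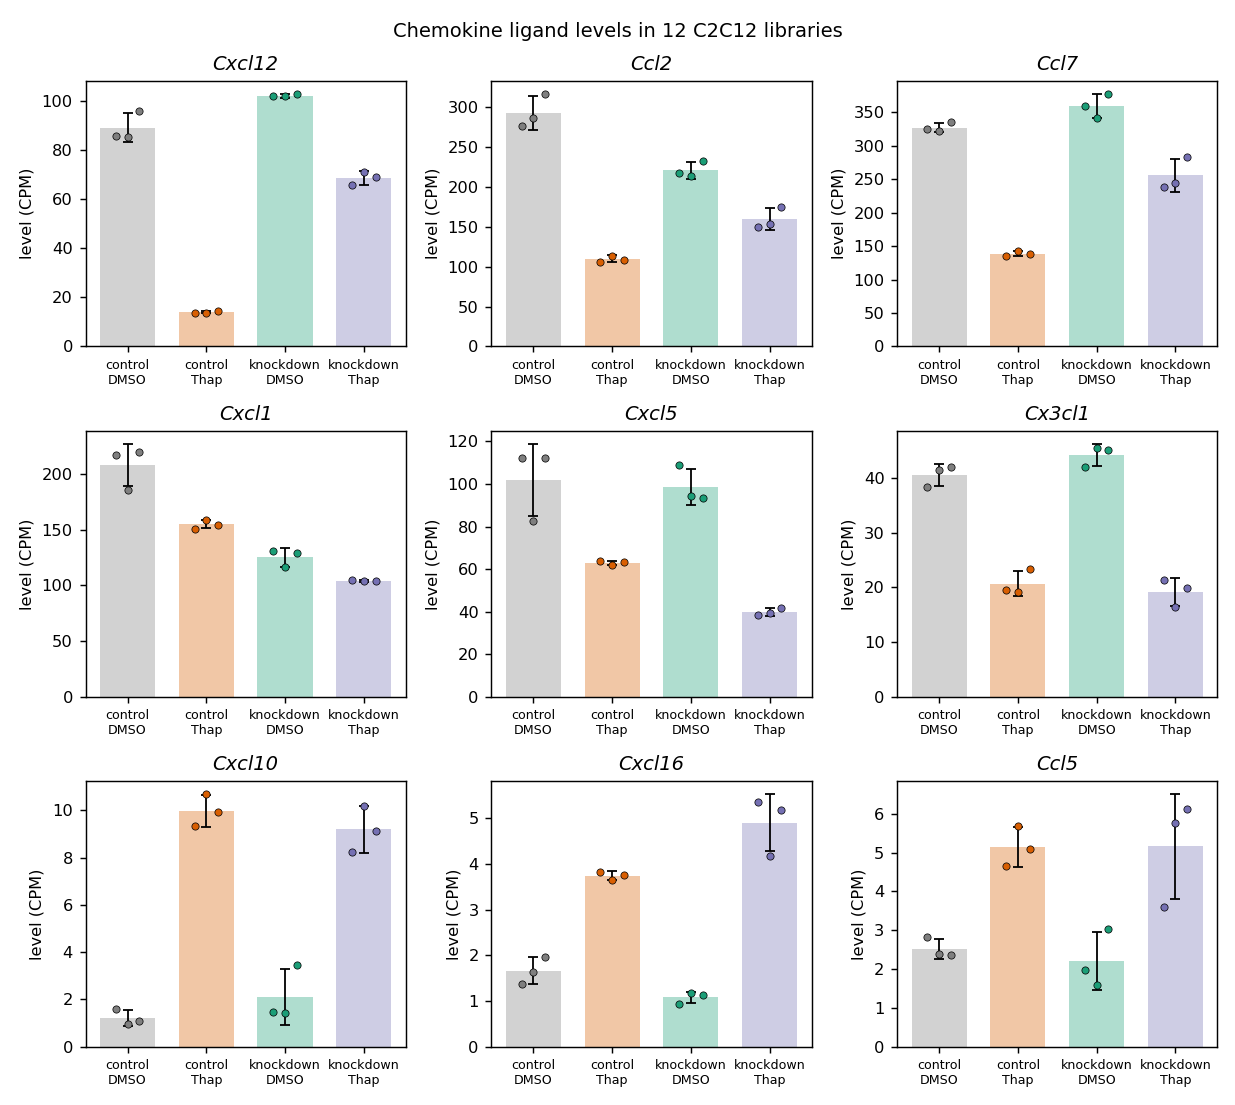
Level (y axis, CPM after TMM scaling, from 0, with its own scale in each panel) of the 9 chemokine genes in the 4 groups (x axis). Points are libraries, bars the mean and error bars the SD (n = 3); in the top row the control thapsigargin libraries are the lowest of each gene, at 13.5 to 14.4 CPM for Cxcl12.

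Cxcl1 and Cxcl5 are neutrophil attractants that signal through Cxcr2, and they differed in how they followed the knockdown. Cxcl1 was at 217, 186 and 220 CPM in control DMSO, 151, 159 and 154 CPM in control thapsigargin, 131, 116 and 129 CPM in knockdown DMSO and 105, 104 and 104 CPM in knockdown thapsigargin libraries. Each group lay apart from the others, in that descending order. The knockdown lowered Cxcl1 in DMSO (-0.73, SE 0.05, adjusted p = 8.67e-13) and under thapsigargin (-0.57, SE 0.05, adjusted p = 1.52e-10). Thapsigargin lowered it in control cells (-0.42, SE 0.05, adjusted p = 1.92e-08) and in knockdown cells (-0.26, SE 0.05, adjusted p = 8.56e-05). These changes did not differ past the threshold (0.16, SE 0.08, adjusted p = 0.102). It passed without control DMSO replicate 2, the lowest library of its group (adjusted p = 0.0131), and ran from 0.0131 to 0.286 over 19 alternatives.

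Cxcl5 was at 112, 82.6 and 112 CPM in control DMSO and 109, 94.2 and 93.5 CPM in knockdown DMSO libraries. Under thapsigargin it was at 63.6, 61.9 and 63.2 CPM in control and 38.2, 39.5 and 41.9 CPM in knockdown libraries. The DMSO groups overlapped, and the thapsigargin groups did not. The knockdown change in DMSO did not pass (-0.05, SE 0.1, adjusted p = 0.721). Without control DMSO replicate 2, the lowest of its group for Cxcl5 too, it was -0.17 and passed (adjusted p = 0.0156), and over 20 alternatives the adjusted p ran from 0.0156 to 0.963. Under thapsigargin Cxcl5 was lower in knockdown cells (-0.66, SE 0.11, adjusted p = 0.000131). It fell with thapsigargin in control cells (-0.70, SE 0.1, adjusted p = 2.92e-05) and further in knockdown cells (-1.31, SE 0.1, adjusted p = 9.76e-08), a difference of -0.61 (SE 0.14, adjusted p = 0.00501). Cxcl5 was thus the 1 ligand of the 9 whose difference passed in the negative direction.

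Cx3cl1, or fractalkine, is a membrane-bound ligand of Cx3cr1 that holds leukocytes on the cell surface. It was at 38.4, 41.5 and 42.1 CPM in control DMSO and 42, 45.6 and 45.2 CPM in knockdown DMSO libraries, which overlapped. Under thapsigargin it was at 19.6, 19.2 and 23.3 CPM in control and 21.4, 16.4 and 19.8 CPM in knockdown libraries, which overlapped too. Thapsigargin lowered it in control cells (-0.98, SE 0.08, adjusted p = 2.9e-12) and in knockdown cells (-1.20, SE 0.08, adjusted p = 5.81e-14). The knockdown changes of 0.12 in DMSO (SE 0.07, adjusted p = 0.165) and -0.10 under thapsigargin (SE 0.08, adjusted p = 0.299) did not pass. Their difference for thapsigargin was -0.23 (SE 0.11, adjusted p = 0.115). It passed without knockdown thapsigargin replicate 1 (adjusted p = 0.0298), and over 19 alternatives the adjusted p ran from 0.0298 to 0.37.

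Cxcl16, the other membrane-bound ligand, binds Cxcr6 and was among the least abundant of the 9. It was at 1.37, 1.63 and 1.97 CPM in control DMSO (47, 57 and 68 reads) and 0.938, 1.18 and 1.13 CPM in knockdown DMSO libraries (29, 40 and 39 reads). Under thapsigargin it was at 3.83, 3.64 and 3.76 CPM in control and 5.35, 4.18 and 5.17 CPM in knockdown libraries. The 4 groups did not overlap, and the knockdown libraries were lower in DMSO and higher under thapsigargin. Thapsigargin raised Cxcl16 in control cells (1.17, SE 0.16, adjusted p = 1e-07) and more in knockdown cells (2.17, SE 0.17, adjusted p = 6.21e-13), a difference of 1.0 (SE 0.25, adjusted p = 0.00155). The knockdown change in DMSO (-0.61, SE 0.2, adjusted p = 0.0119) did not hold without knockdown DMSO replicate 1 (adjusted p = 0.0556) or control DMSO replicate 3 (0.0881), with a range of 0.00605 to 0.0881. The one under thapsigargin (0.39, SE 0.14, adjusted p = 0.018) was lost without control thapsigargin replicate 2 (adjusted p = 0.061) or knockdown thapsigargin replicates 1 (0.09) or 3 (0.0683), with a range of 0.00731 to 0.09. Zmynd15, which shares exon bases on the other strand, also rose with thapsigargin, by 2.17 (SE 0.25) in control and 2.60 (SE 0.3) in knockdown cells. With the knockdown it fell by -0.99 (SE 0.36) in DMSO and -0.56 (SE 0.21) under thapsigargin, calls lost in 4 and 3 of 20 alternatives. The part of Zmynd15 reads in the Cxcl16 values was not tested.

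Cxcl10, the interferon-inducible ligand of Cxcr3 on T cells, rose the most of the 9 with thapsigargin in control cells, and next to Cxcl16 in knockdown cells. It was at 1.6, 0.974 and 1.07 CPM in control DMSO (55, 34 and 37 reads) and 9.33, 10.7 and 9.92 CPM in control thapsigargin libraries. Knockdown libraries held 1.46, 1.42 and 3.47 CPM in DMSO (45, 48 and 120 reads) and 8.23, 10.2 and 9.13 CPM under thapsigargin. The treatments were far apart, the cell populations overlapped in both, and knockdown DMSO replicate 3 stood above the other libraries in DMSO. The rise was 8.22-fold in control cells (3.04, SE 0.25, adjusted p = 2.96e-08) and 4.3-fold in knockdown cells (2.10, SE 0.24, adjusted p = 1.16e-06). The difference of the rises was -0.94 (SE 0.37, adjusted p = 0.0675), and 6 of 19 alternatives passed, with a range of 0.000301 to 0.29. Those that passed were no filter on low counts (0.000301), a stricter filter (0.046), limma-voom (0.0433), and leaving out control DMSO replicate 1 (0.0352) or knockdown DMSO replicate 1 (0.0187) or 2 (0.0122).

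The knockdown change of Cxcl10 in DMSO, 0.81 (SE 0.32, adjusted p = 0.0478), rested on 1 library. Without knockdown DMSO replicate 3 it was 0.24 (adjusted p = 0.406). In all, 9 of 20 alternatives ended that call, among them a fit of the compared groups alone (adjusted p = 0.0523). So did leaving out control DMSO replicates 2 (0.162) or 3 (0.15), control thapsigargin replicates 1 (0.0616), 2 (0.057) or 3 (0.0794), or knockdown thapsigargin replicate 3 (0.077), and the range was 0.000146 to 0.406. Under thapsigargin the knockdown change was -0.12 (SE 0.19, adjusted p = 0.612). Art3, whose exons share bases with Cxcl10 on the other strand, moved the opposite way with thapsigargin, by -1.60 (SE 0.22) in control and -1.68 (SE 0.18) in knockdown cells. With the knockdown in DMSO it rose, as Cxcl10 did, by 1.11 (SE 0.17, adjusted p = 2.04e-06). Under thapsigargin the knockdown change of Art3 was 1.02 (SE 0.24, adjusted p = 0.000442). The part of Art3 reads in the Cxcl10 values was not tested.

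Ccl5, also called RANTES, attracts T cells and monocytes and was low in all groups. It was at 2.83, 2.38 and 2.37 CPM in control DMSO (97, 83 and 82 reads) and 1.97, 1.59 and 3.04 CPM in knockdown DMSO libraries (61, 54 and 105 reads). Under thapsigargin it was at 4.66, 5.68 and 5.09 CPM in control and 3.61, 5.77 and 6.11 CPM in knockdown libraries. The cell populations overlapped in both treatments, and knockdown DMSO replicate 3 was again the highest of its group. Thapsigargin raised Ccl5 in control cells (1.03, SE 0.19, adjusted p = 2.73e-05) and in knockdown cells (1.22, SE 0.2, adjusted p = 6.09e-06). The difference of the rises was 0.19 (SE 0.28, adjusted p = 0.65). The knockdown changes were -0.19 in DMSO (SE 0.22, adjusted p = 0.488) and -0.00 under thapsigargin (SE 0.17, adjusted p = 0.983).

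What the knockdown did at each treatment can be counted over the 9 genes. In DMSO 3 rose (Cxcl12, Ccl7 and Cxcl10), 3 fell (Cxcl1, Ccl2 and Cxcl16) and 3 did not pass (Cxcl5, Cx3cl1 and Ccl5). Of all genes 51.5% changed in DMSO, 25.0% up and 26.5% down. Libraries were apart for 5 of the 9, and the medians were -0.05 for the 9 genes and 0.0 for all. Under thapsigargin 4 rose (Cxcl12, Ccl7, Ccl2 and Cxcl16), 2 fell (Cxcl1 and Cxcl5) and 3 did not pass, against 56.9% of all genes changed, 28.5% up and 28.4% down. There the libraries were apart for 6 of the 9, and the medians were 0.0 and 0.02. In each treatment 6 of the 9 were called, and nothing particular to the ligands is read from these counts. The knockdown comparisons use the same libraries as the thapsigargin comparisons above, so these counts are not separate evidence.

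The other ligands of the family gave a list of 27 genes, of which 13 had enough reads to be tested. Under thapsigargin 8 rose, 3 fell and 2 did not pass in control cells, with a median of 2.38, and the same counts held in knockdown cells, with a median of 1.08. For all genes tested, the shares that rose or fell and the medians are those given above, here and for the lists below. Genes with 0 reads in DMSO enter these medians with fitted values, and at their bounds they lie above the medians as well. Of the 3 that fell in control cells, Ppbp was lost in 7 of 20 alternatives. Ccl20, which attracts cells through Ccr6, had 0 reads in either DMSO group and rose to 1.2 ± 0.245 CPM in control cells, at least 41.5-fold with 3 reads over the DMSO group as the floor. In knockdown cells it rose to 1.11 ± 0.323 CPM, at least 39.7-fold. Cxcl2, a neutrophil attractant 10.8 kb from Cxcl1, went from 0 to 125 reads in control cells (at least 37.3-fold), whereas its neighbour Cxcl1 fell. Cxcl3, of the same group, rose from 0.337 ± 0.11 to 3.16 ± 0.332 CPM in control and from 0.109 ± 0.136 to 2 ± 0.21 CPM in knockdown cells (4.13, SE 0.38). Cxcl11, an interferon-inducible gene 10.7 kb from Cxcl10, went from 0 to 94 reads in control cells, at least 28.1-fold. Cxcl2 (4.16, SE 0.8) and Cxcl11 (4.37, SE 0.6) also rose in knockdown cells, from few reads in DMSO. The difference of the rises passed for neither (adjusted p = 0.16 for Cxcl2 and 0.107 for Cxcl11).

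Of the other ligand genes near Ccl2 and Ccl7, Ccl11 and Ccl8 fell with them under thapsigargin, and Ccl12 and Ccl1 were too low to test. Ccl11, or eotaxin, lies 10.3 kb from Ccl7 and was at 2.09 ± 0.448 CPM in control DMSO and 0.138 ± 0.108 CPM in control thapsigargin cells (-3.78, SE 0.4, adjusted p = 3.52e-10). In knockdown cells it went from 0.492 ± 0.112 to 0.0979 ± 0.0848 CPM (-2.25, SE 0.55, adjusted p = 0.000571). Ccl8, a monocyte attractant 67.7 kb from Ccl7, went from 10.6 ± 1.18 to 3.94 ± 0.309 CPM in control and from 6.29 ± 0.322 to 3.34 ± 0.333 CPM in knockdown cells (-0.91, SE 0.12). With the knockdown in DMSO 4 of the 13 fell and 9 did not pass. The median of -0.04 includes fitted values of Ccl20, Cxcl2 and Cxcl11, which had at most 3 reads in either group. Those 4 included Ccl11 (-2.08, SE 0.33), Ccl9 (-1.74, SE 0.1) and Ccl8 (-0.75, SE 0.11). The other was Cxcl3 (-1.58, SE 0.53), whose libraries overlapped and whose call was lost in 3 of 19 alternatives. Ccl9, 42.4 kb from Ccl5, was at 20.3 ± 2.04 CPM in control and 6.05 ± 0.653 CPM in knockdown DMSO cells. Under thapsigargin 1 rose with the knockdown, 5 fell and 7 did not pass, with a median of -0.55. The largest fall there was that of the interferon-inducible gene Cxcl9, from 1.01 ± 0.184 to 0.347 ± 0.149 CPM (-1.56, SE 0.4, adjusted p = 0.00117), and Ccl3 went from 1.82 ± 0.439 to 0.824 ± 0.36 CPM (-1.15, SE 0.32, adjusted p = 0.0027). The thapsigargin changes differed between the cell populations for Ccl9 (0.94, SE 0.14) and Ccl8 (0.5, SE 0.17), and the other 11 did not pass. The Ccl8 difference did not pass when knockdown thapsigargin replicate 3 (adjusted p = 0.0804) or control DMSO replicate 2 (0.0694) was left out.

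Of 23 chemokine receptors 7 had enough reads to be tested, among them both receptors of Cxcl12. Under thapsigargin 2 rose, 4 fell and 1 did not pass in control cells, and 2 rose, 3 fell and 2 did not pass in knockdown cells, with medians of -0.9 and -0.11. Cxcr4, the signalling receptor of Cxcl12, was at 49.6, 47.3 and 46.1 CPM in control DMSO and 7.62, 9.34 and 9.3 CPM in control thapsigargin libraries (-2.43, SE 0.08, adjusted p = 4.34e-24). In knockdown cells it was at 35.5, 34.9 and 36.2 CPM in DMSO and 11.2, 13.7 and 12.5 CPM under thapsigargin (-1.51, SE 0.07, adjusted p = 2.15e-18). As with Ccl2, the knockdown libraries were below the control libraries in DMSO and above them under thapsigargin. Ackr3, which takes up Cxcl12, fell from 79 ± 1.5 to 13.9 ± 1.29 CPM in control cells and from 78.9 ± 4.46 to 15.2 ± 1.86 CPM in knockdown cells. Its change was -2.50 (SE 0.07) in control and -2.38 (SE 0.07) in knockdown cells, and the difference did not pass (0.12, SE 0.1, adjusted p = 0.37).

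Cxcr6, the receptor of Cxcl16, fell with thapsigargin while Cxcl16 rose. It was at 2.65 ± 0.239 CPM in control DMSO and 0.213 ± 0.101 CPM in control thapsigargin cells (-3.56, SE 0.26, adjusted p = 4.44e-14), and at 6.41 ± 0.667 and 1.98 ± 0.323 CPM in knockdown cells (-1.69, SE 0.16, adjusted p = 3.76e-11). With the knockdown 2 receptors rose, 2 fell and 3 did not pass in DMSO, and 3 rose and 4 did not pass under thapsigargin, with medians of 0.0 and 0.5. The fall of Ccr10 in DMSO (-0.86, SE 0.3) was lost in 2 of 20 alternatives. Xcr1, whose ligand is Xcl1, rose with the knockdown from 0.549 ± 0.0542 to 1.87 ± 0.195 CPM in DMSO (1.77, SE 0.25) and from 0.371 ± 0.133 to 2.2 ± 0.139 CPM under thapsigargin (2.58, SE 0.26). The thapsigargin changes differed for Cxcr6 (1.87, SE 0.34) and Cxcr4 (0.92, SE 0.11), both less negative in knockdown cells, and 5 receptors did not pass. Among receptors of other members, Ccr2, Cxcr2, Cxcr3 and Cx3cr1 were too low to test.

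**Figure D4:**
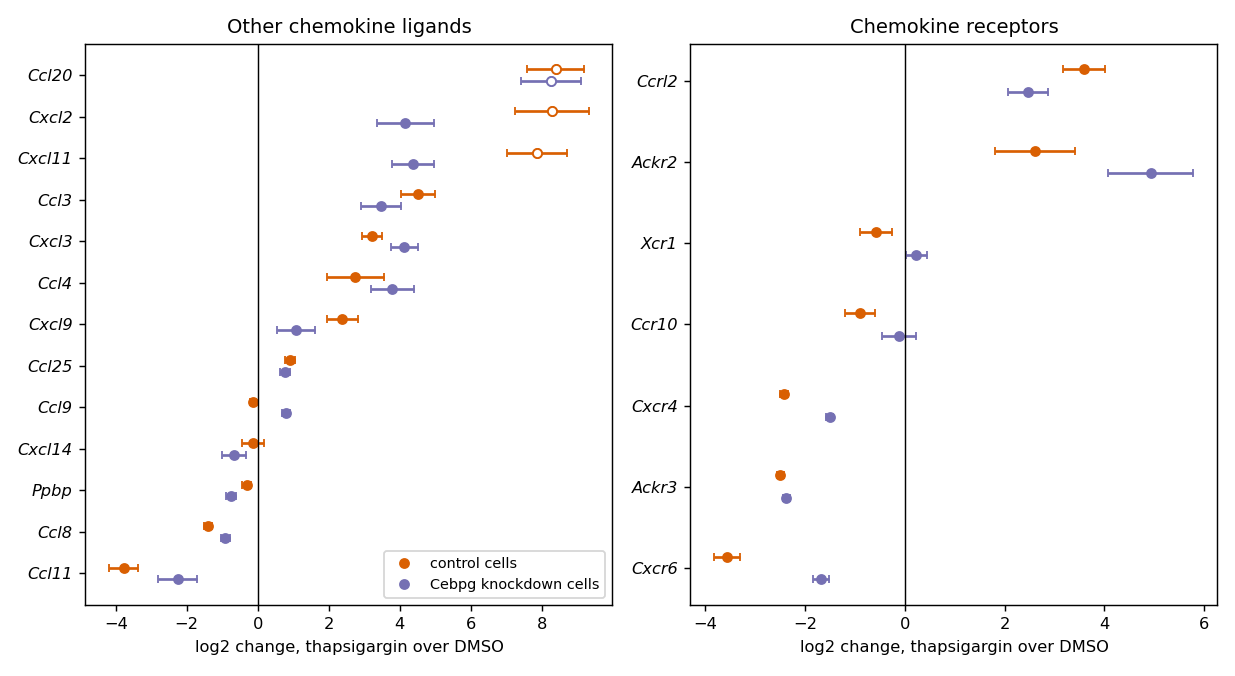
Change with thapsigargin (x axis, log2 of thapsigargin over DMSO) of the 13 other chemokine ligands and the 7 chemokine receptors that could be tested (y axis), in control cells (orange) and Cebpg knockdown cells (purple); bars are approximate SE. Open circles mark genes with 0 reads in DMSO, whose fitted value is no bound; Cxcr4, Ackr3 and Cxcr6 lie below 0 in both cell populations.

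The genes through which inflammatory chemokines are known to be induced were taken as 3 lists. All 14 NF-kappaB subunits, kinases and inhibitors were tested, and in each cell population 10 rose, 2 fell and 2 did not pass under thapsigargin, with medians of 0.58 in control and 0.69 in knockdown cells. Relb, a subunit, rose from 34.7 ± 1.96 to 103 ± 5.19 CPM in control cells (1.57, SE 0.06) and from 18.2 ± 0.63 to 79.4 ± 8.64 CPM in knockdown cells (2.13, SE 0.07). Nfkbia, the inhibitor IkappaB alpha, fell from 86.8 ± 5.83 to 37.7 ± 2.82 CPM in control cells (-1.20, SE 0.06). With the knockdown 4 rose, 7 fell and 3 did not pass in DMSO, and 5 rose, 5 fell and 4 did not pass under thapsigargin, with medians of -0.07 and 0.06. Of the calls under thapsigargin, Ikbkg was lost in 11 of 20 alternatives, Nfkbie in 9 and Bcl3 in 9, and in DMSO Nfkbia was lost in 6. Between the cell populations the thapsigargin change differed positively for 6 and negatively for 3, and 5 did not pass.

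Of 18 upstream cytokines, receptors and adaptors 17 were tested. Under thapsigargin 10 rose, 5 fell and 2 did not pass in control cells, and 8 rose, 6 fell and 3 did not pass in knockdown cells, with medians of 0.25 and 0.19. Il6 rose from 11.6 ± 1.48 to 42.1 ± 1.81 CPM in control cells (1.85, SE 0.07, adjusted p = 4.5e-21), and was at 14.2 ± 0.519 and 16.7 ± 0.158 CPM in knockdown cells. Tnf rose from 0.646 ± 0.114 to 2.68 ± 0.217 CPM in control cells (2.04, SE 0.23) and was at 0.703 ± 0.0603 and 1.04 ± 0.222 CPM in knockdown cells. With the knockdown 4 rose, 10 fell and 3 did not pass in DMSO, and 3 rose, 10 fell and 4 did not pass under thapsigargin, with medians of -0.25 and -0.44. Il1a fell from 5.95 ± 0.157 to 1.04 ± 0.262 CPM with the knockdown in DMSO (-2.52, SE 0.16). The difference passed in the positive direction for 4 and in the negative direction for 5. Among these calls Il1b was lost in 10 of 18 alternatives and Tnfrsf1b in 8 of 19, and Tlr4 under thapsigargin in knockdown cells and Tlr3 with the knockdown in DMSO in 8 and 5 of 20.

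All 10 interferon regulatory and STAT factors were tested. Under thapsigargin 7 rose, 2 fell and 1 did not pass in control cells, and 8 rose and 2 fell in knockdown cells, with medians of 0.48 and 0.39. With the knockdown 8 fell and 2 did not pass in DMSO, and 7 fell and 3 did not pass under thapsigargin, with medians of -0.55 and -0.46. Of all genes tested 26.5% fell with the knockdown in DMSO and 28.4% under thapsigargin. Irf7 was at 2.16 ± 0.235 CPM in control and 1.08 ± 0.311 CPM in knockdown DMSO cells (-0.99, SE 0.2), and at 5.57 ± 0.134 and 2.13 ± 0.268 CPM under thapsigargin (-1.39, SE 0.16). Irf9 was at 18.9 ± 0.805 and 11.4 ± 0.768 CPM in DMSO (-0.72, SE 0.09), and at 30.9 ± 4.12 and 16.9 ± 0.97 CPM under thapsigargin (-0.87, SE 0.08). The knockdown changes of the interferon-inducible ligand Cxcl10 were those given above, 0.81 in DMSO and -0.12 under thapsigargin. The difference passed in the positive direction for 4 and in the negative direction for 1, Irf2, which was lost in 6 of 19 alternatives.

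Genes that act on chemokines after transcription were taken as further lists. Under thapsigargin 74.7% of all genes tested changed in control and 69.8% in knockdown cells. The 6 mRNA decay factors of inflammatory transcripts were all tested, and 3 rose and 3 fell under thapsigargin in control cells, whereas 1 rose, 4 fell and 1 did not pass in knockdown cells, with medians of -0.28 in each. Zfp36, or tristetraprolin, which binds AU-rich transcripts, fell from 31.4 ± 1.62 to 14.2 ± 1.03 CPM in control cells (-1.14, SE 0.07) and from 33.2 ± 2.11 to 23.3 ± 1.5 CPM in knockdown cells (-0.51, SE 0.07). With the knockdown 2 rose, 2 fell and 2 did not pass in DMSO, and 3 rose, 1 fell and 2 did not pass under thapsigargin, with medians of 0.07 and 0.18. The difference was positive for 3 and negative for 3. Of 6 sheddases and proteases 5 were tested, and 1 rose and 4 fell under thapsigargin in either cell population, with medians of -0.51 in control and -0.96 in knockdown cells. The 1 that rose, Mmp9, was lost in 8 of 20 alternatives in control cells. Adam10, which sheds Cx3cl1 and Cxcl16, was at 178 ± 5.92 CPM in control DMSO and 124 ± 1.81 CPM in control thapsigargin cells, and at 128 ± 9.51 and 66.3 ± 3.87 CPM in knockdown cells. The knockdown raised 1 and lowered 4 in DMSO, and raised 2 and lowered 3 under thapsigargin, with medians of -0.21 and -0.53. The difference was positive for 1, negative for 2 and did not pass for 2.

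Of 10 glycosaminoglycan core proteins, the carriers of chemokine-binding sugar chains, 8 were tested. Under thapsigargin 7 fell and 1 did not pass in either cell population, with medians of -0.52 in control and -0.62 in knockdown cells. The fall of Sdc2 in control cells (-0.10, adjusted p = 0.041) was lost in 11 of 20 alternatives, among them RLE scaling (0.153), the stricter filter (0.212) and DESeq2 (0.121). Sdc4, a syndecan, fell from 264 ± 8.96 to 95.5 ± 2.68 CPM in control cells (-1.47, SE 0.05) and from 254 ± 7.7 to 128 ± 5.52 CPM in knockdown cells (-0.99, SE 0.04). With the knockdown 2 rose, 5 fell and 1 did not pass in DMSO, and 3 rose and 5 fell under thapsigargin, with medians of -0.46 and -0.5. The difference was positive for 1 and negative for 2, with 5 not passed.

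Which transcripts had the pattern most like each ligand was described by Pearson's r of log2 CPM over the 12 libraries, among 12296 tested genes with a mean of at least 1 CPM. The libraries share their 4 groups, so r describes the group pattern, and no test is given. For Cxcl12 the closest were Crlf3 (r = 0.991) and Elk3 (0.99), for Ccl2 Tnfaip8 (0.993) and Kat2b (0.99), and for Ccl7 Rfc2 (0.989) and Bcorl1 (0.989). For Cxcl1 they were Ptn (0.987) and P2rx4 (0.987), and for Cxcl5 Kdsr (0.984) and Vezt (0.981). Cx3cl1 was closest to the matrix genes Hspg2 (0.989) and Fbln2 (0.988). For Cxcl16 the closest were Anks3 (0.992) and Gga3 (0.985), for Cxcl10 Zbtb11 (0.985) and Ercc8 (0.982), and for Ccl5 Zfp870 (0.955) and Gm10509 (0.952). Among the 9 genes themselves, Cxcl12 and Ccl7 were the most alike (r = 0.979) although they lie on different chromosomes, followed by Cxcl10 and Ccl5 (0.914) and the neighbours Ccl2 and Ccl7 (0.907). Cxcl5 was closest to Cx3cl1 (0.882), Cxcl16 to Ccl5 (0.852) and Cxcl1 to Cxcl5 (0.672), the lowest of these best matches.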

How the data were processed

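RNA-seq read counts were analysed for 12 C2C12 libraries in 4 groups taken from the sample titles. Per the labels' protocols, poly(A) RNA was sequenced. Per the submitters' processing notes, Trim Galore, STAR 2.5.3a, bedtools 2.31.0 and DESeq2 were used, with builds mm10 and hg38. The authors deposited raw counts per gene. The counter, annotation release and strand are not given in the sources used here. Of reads, 13.32% to 14.61% per library fell in 5 entries that name no gene (6.47% to 6.88% ambiguous), which were left out. Of 53801 identifiers 53706 matched GENCODE vM21.

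Tests used edgeR 4.0.16 (TMM, factors 0.967 to 1.073, its filter for low counts, robust quasi-likelihood fit of 4 groups, 8 residual degrees of freedom, common biological coefficient of variation 4.67%). Of the genes, 15828 passed this filter and 37973 did not. SE was taken as |log2 change| over the root of the F statistic, which is approximate. Replicates differed by more than counting noise (chi-square per gene 2.51 to 9.83). Exon length is the union of exons. Likeness used a prior count of 2.

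The members and lists were chosen with earlier results of these data known. From each list, at most 3 called genes per comparison with the largest changes and a group mean of at least 1 CPM could be named. Cxcl11, Ccl1, Ccl12, Ptprc, Cd68, Csf1r, Art3, Zmynd15 and the list genes given only for lost calls were named after their values were seen. Alternatives were RLE and upper quartile scaling, no filter, a filter of 1 CPM in 3 libraries, DESeq2 1.42.0, limma-voom (limma 3.58.1), a replicate block, the compared groups alone and leaving out each library. The pipeline was tested on simulated data. Scripts ran in R 4.3.3 and in Python 3.11.15 with pandas 2.3.3, and figures were drawn with matplotlib 3.10.9.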

Additional observations from a re-analysis of the deposited data

Results flagged for a closer look

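The change with thapsigargin differed between control and knockdown cells, by the test of the difference itself, for the genes given here. It did so for 35.4% of all genes tested. Beyond the 9 ligands, at most 3 genes per list are given, and further genes of some lists passed too. Each value is the log2 change in knockdown cells minus that in control cells. Among the 9 ligands it was 2.11 for Cxcl12, 1.0 for Cxcl16, 0.95 for Ccl2, 0.74 for Ccl7 and -0.61 for Cxcl5. Among other ligands it was 0.94 for Ccl9 and 0.5 for Ccl8, the latter resting on 2 libraries named above. For the receptors it was 1.87 for Cxcr6 and 0.92 for Cxcr4.

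Of the NF-kappaB genes, Nfkbiz gave -0.95, Nfkbie 0.67 and Nfkbia 0.66. The cytokine genes gave -1.62 for Il6, 1.58 for Il1a and -1.48 for Tnf. The interferon regulatory factors gave 0.62 for Irf5, 0.6 for Irf1 and 0.39 for Irf3. Among mRNA decay factors it was 0.77 for Zfp36l1, 0.63 for Zfp36 and -0.49 for Zfp36l2. The proteases gave -0.44 for Adam10, 0.44 for Mmp14 and -0.32 for Adam17. The syndecans gave 0.48 for Sdc4, -0.23 for Sdc3 and -0.21 for Sdc2, and Sdc3 did not pass when control thapsigargin replicate 3 was left out (adjusted p = 0.0517).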

How the results depend on the processing

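Over 891 recomputed values of the 45 results for the 9 ligands, 864 kept the call, 18 lost it, 9 gained it and 0 turned it to the opposite direction, and 37 results kept their call in all. Values lay on both sides of 0 for Cxcl5 with the knockdown in DMSO (-0.17 to 0.02) and for Ccl5 with the knockdown under thapsigargin (-0.15 to 0.2) and the difference (-0.01 to 0.5). The number of ligands called was 6 with the knockdown in DMSO (5 to 6 under other settings, 4 to 6 when leaving out 1 library) and 6 under thapsigargin (6 to 6, and 5 to 6). It was 9 for thapsigargin in each cell population throughout, and 5 for the difference (5 to 6, and 5 to 6). The number too low to test was 0 throughout. The Cebpg knockdown change in DMSO was -3.59 (-3.6 to -3.58, and -3.71 to -3.47). Leaving out a library leaves 2 in its group. Same-numbered libraries did not deviate together (correlations of -0.03 to 0.077, 0 of 18 over 0.1), so the numbers were not taken to pair them. With a replicate block 5 ligands were called for the knockdown in DMSO, Cxcl10 being lost (adjusted p = 0.0724), and 5 for the difference, and no other call of the 9 ligands changed. Depth limits Cxcl10, Cxcl16 and Ccl5 in DMSO, which had 29 to 120 reads per library. The cause of the changed calls was not tested.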
